A study of Homo sapiens with 4 samples.

Results

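The genes described here are 10 genes that are commonly used to place a cell between an epithelial and a mesenchymal state. They are the epithelial genes CDH1, EPCAM, CD24, F11R and TJP1 and the mesenchymal genes CDH2, VIM, FN1, ZEB1 and SNAI2. They were taken by symbol from a table of read counts for 23340 genes, and all 10 were found. Poly-A RNA had been sequenced from 4 libraries of A549, a human cell line with epithelial origin in a lung carcinoma, grown in RPMI with 10% FBS. The libraries WT 1 and WT 2 come from wild type cells. The libraries called clone 4 and clone 5 come from NOCT-KO cells, and each clone is the progeny of a single cell that received Cas9 and a guide against NOCT from a lentiviral vector, was selected with puromycin and was isolated by limiting dilution. Whether the WT cells passed through lentivirus, selection and cloning, and whether the WT libraries were separate cultures, is not stated, so genotype and these steps cannot be told apart, and the spread between the WT libraries may be technical.

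Epithelial cells are held together by adherens junctions, tight junctions and desmosomes. In the epithelial-mesenchymal transition, transcription factors of the SNAI, ZEB and TWIST families lower E-cadherin and junction proteins, and cells take on N-cadherin, the filament protein vimentin and fibronectin. Many carcinoma lines, A549 among them, hold features of both states at once.

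Levels are given as CPM, read counts relative to library sizes scaled by TMM, and levels of different genes are compared per kilobase of exon. Library totals ranged from 36873556 to 41963070 counts. Even numbers made up 99.1% to 99.2% of the nonzero values, and a fragment may have been counted as 2. Among the genes described here, only CD24 (6523, 6709 and 835 in WT 1, WT 2 and clone 4) and F11R (3905 in clone 4) had odd counts. The reason was not tested. The transcript of NOCT, listed as CCRN4L, stood at 20.8 and 20.1 CPM in WT, with 29.3 and 15.6 in clones 4 and 5. It was higher in clone 4 than in WT (log2 0.52, SE 0.14, adjusted p = 0.0293 by edgeR) and than in clone 5 (0.91, SE 0.17, adjusted p = 0.00223), and clone 5 did not pass against WT (-0.39, SE 0.15, adjusted p = 0.208). The targeted transcript was not lower by test in either clone, and its level does not check the edit itself. Of 9 markers of A549 and epithelial cells, KRT19 was at 0 in every library, and their summed level ran from 7188 to 8579 CPM. The summed level of 5 blood markers was at most 0.499 CPM and that of 5 endothelial markers at most 0.144 CPM. Among 6 fibroblast markers DCN and THY1 were at 0 in every library, while the sum was 217 and 230 CPM in WT 1 and WT 2, and 34.4 and 214 in clones 4 and 5, mostly from COL3A1, a fibrillar collagen.

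The 4 libraries held a mixed set of these genes. Per kilobase of exon the WT mean was highest for VIM, at 159 CPM per kb, followed by TJP1 at 32.2, CDH2 at 16.6, ZEB1 at 13.5, F11R at 12.0, CDH1 at 2.86, FN1 at 0.516, SNAI2 at 0.348 and EPCAM at 0.0492 CPM per kb. Neighbours in this order lay apart by more than the spread of the WT pair except FN1 and SNAI2, whose WT values overlapped (0.46 and 0.573 against 0.477 and 0.22 CPM per kb). No exon length was found for CD24, so it has no place in the order. N-cadherin mRNA stood above E-cadherin mRNA in every library, with a CDH2 to CDH1 ratio per kb of 6.07 and 5.55 in WT 1 and WT 2, and 3.93 and 5.70 in clones 4 and 5. The ratio in clone 4 was below that of the other 3 libraries, and that in clone 5 lay between the WT values. The VIM to CDH1 ratio per kb was 58.4 and 53.0 in WT and 75.2 and 67.4 in clones 4 and 5, above WT in both clones. In clone 4 both genes lay below the WT mean, at 0.874 of it for VIM and 0.645 for CDH1. The ratio in clone 4 thus rose with the larger fall of CDH1 and not with more VIM. In clone 5 VIM was at 1.11 and CDH1 at 0.911 of the WT mean.

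**Figure D1:**
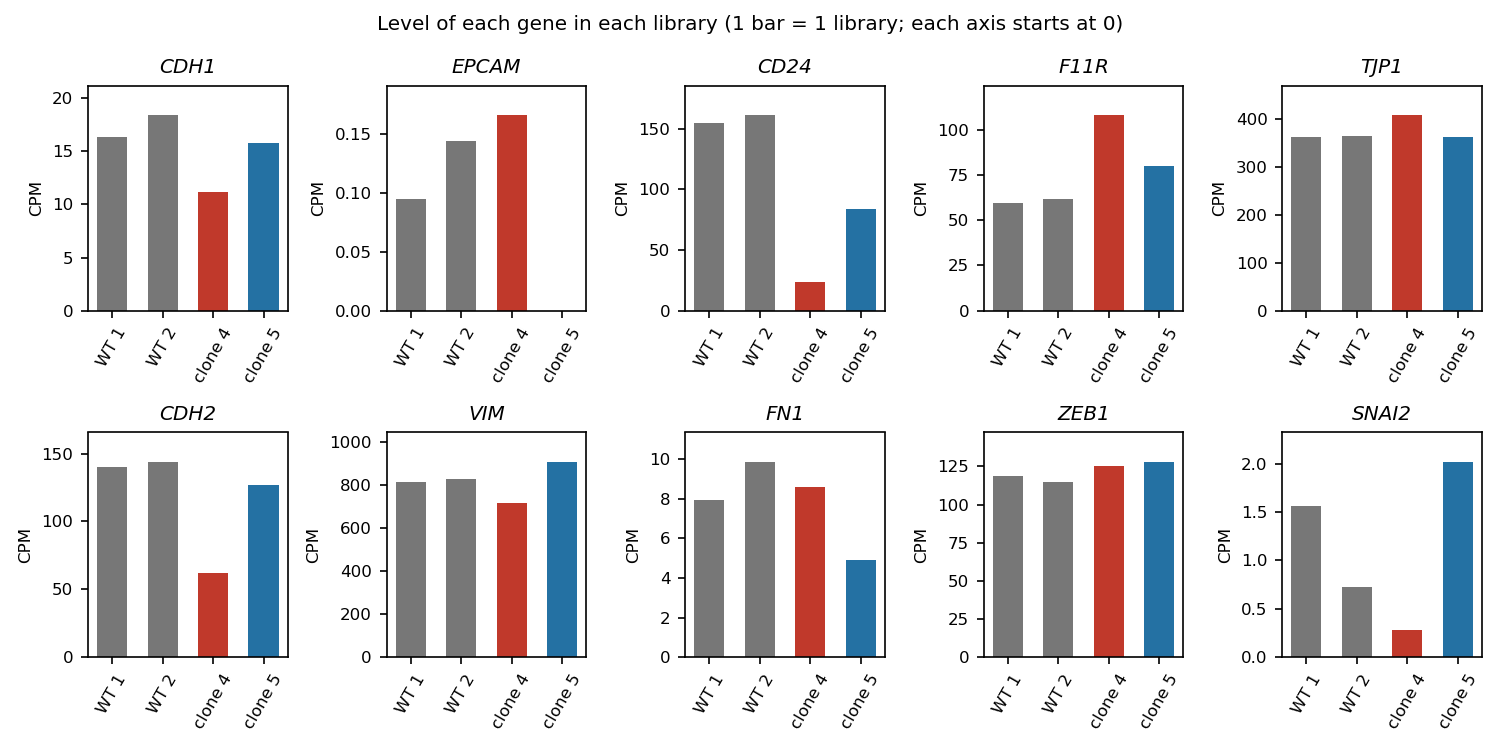
Level in CPM (y axis, each starting at 0) of the 10 genes in the libraries WT 1, WT 2, clone 4 and clone 5, with 1 bar for 1 library. CD24 falls from 155 and 161 CPM in WT to 23.2 CPM in clone 4 and 83.5 CPM in clone 5, and F11R rises from 59.5 and 61.5 CPM to 108 and 79.7 CPM.

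Of the 10 genes, 9 passed the filter on low counts and were tested. The 10 genes were chosen with earlier results of these data known, so their shares called are not an independent measure. In clone 4 against WT, CD24, CDH2 and CDH1 were lower and F11R was higher, which is 3 of 9 lower where 6.02% of all 13143 genes tested were called lower, and 1 of 9 higher where 5.41% were. In clone 5 against WT, CD24 was lower and F11R higher, against 1.73% and 1.78% of all genes tested. Their median log2 of clone over WT was -0.19 in clone 4 and -0.0025 in clone 5, beside -0.011 and -0.0044 over all genes tested. The clone comparisons share the WT libraries, and each clone is 1 library that was assumed to vary like the WT pair.

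**Figure D2:**
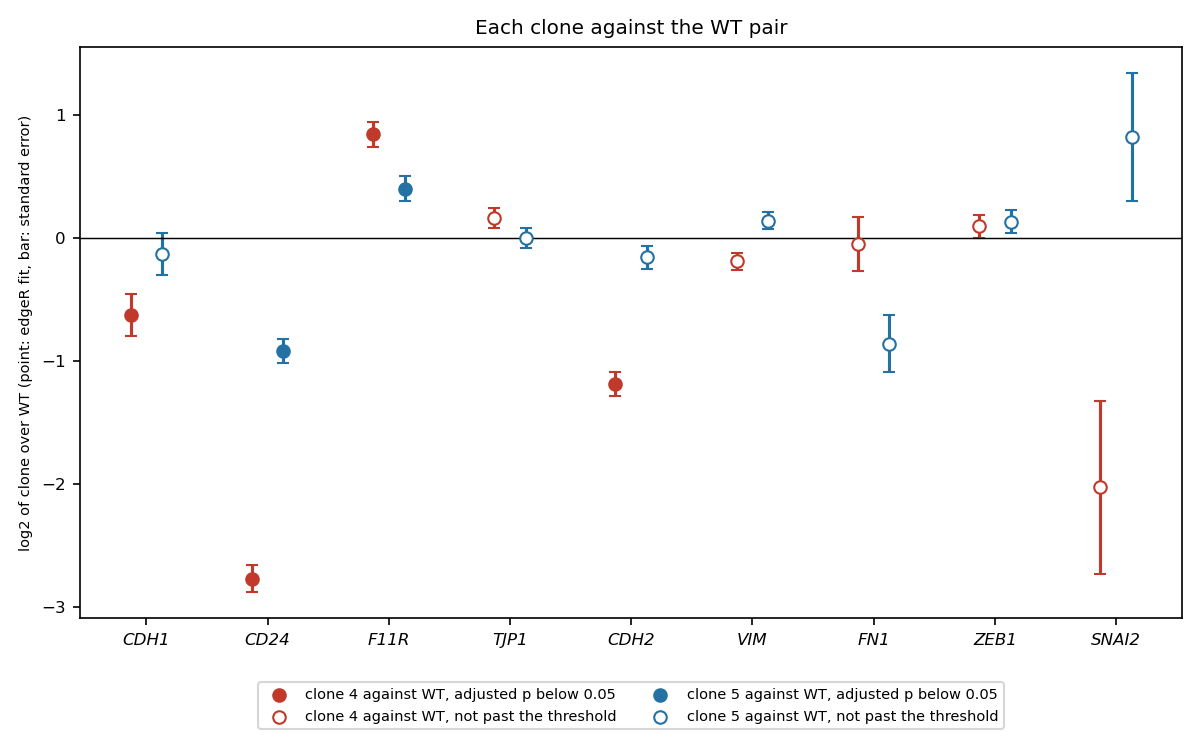
The log2 of clone over WT (y axis) for the 9 genes tested, in clone 4 (red) and clone 5 (blue). Bars are standard errors derived from edgeR's F statistic, and filled points have an adjusted p below 0.05. CD24 at -2.77 and CDH2 at -1.19 in clone 4 lie farthest from 0 among the filled points.

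CD24 and CDH2 had the largest called falls. A start site of each is shown beside a start site of TJP1, whose level was close to WT in clone 5. The TJP1 start shown has an E-box in its window, while its other starts have none. Another start of CD24 does have an E-box, so the contrast between the sequences depends on the starts shown. The sequences are the 250 bases before a RefSeq start site on GRCh38.p14, which is not the build of the counts, written 5' to 3' on the strand of the gene. They lie at chr6:106975628-106975877 (minus strand), chr18:28177131-28177380 (minus strand) and chr15:29969050-29969299 (minus strand). Capitals mark CAGGTG, the E-box core that SNAI and ZEB proteins can bind.
CD24: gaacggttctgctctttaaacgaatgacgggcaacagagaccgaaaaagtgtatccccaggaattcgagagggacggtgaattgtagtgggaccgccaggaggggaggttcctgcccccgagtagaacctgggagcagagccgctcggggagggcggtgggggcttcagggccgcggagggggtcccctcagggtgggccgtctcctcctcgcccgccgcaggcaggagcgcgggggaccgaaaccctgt
CDH2: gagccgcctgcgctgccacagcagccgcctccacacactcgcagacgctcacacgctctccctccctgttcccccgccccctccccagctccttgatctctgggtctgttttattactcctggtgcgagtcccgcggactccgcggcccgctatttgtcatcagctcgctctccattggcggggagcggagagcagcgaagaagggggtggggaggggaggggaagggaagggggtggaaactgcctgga
TJP1: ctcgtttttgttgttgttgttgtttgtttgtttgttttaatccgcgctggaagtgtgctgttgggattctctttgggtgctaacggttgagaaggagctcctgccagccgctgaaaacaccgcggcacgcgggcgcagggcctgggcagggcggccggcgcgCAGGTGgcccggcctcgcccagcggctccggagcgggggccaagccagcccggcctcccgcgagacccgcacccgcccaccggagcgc
The E-box of TJP1 starts at position -88 from the start site. Both strands were searched, as CAGGTG or its reverse complement CACCTG, in windows of 300 bases from 250 before to 50 after each start. For the genes described here, windows on the chromosome of SNAI2 were left out, so whether SNAI2 has a window with the motif was not tested. Windows of 6 of the genes were counted, namely FN1, CD24, VIM, ZEB1, TJP1 and CDH2. Of their 18 windows 4 held the motif, beside 20.6% of all 35116 windows, where no chromosome was left out. These were 1 of CD24, at -249 of another start, 1 of TJP1 and 2 of ZEB1. A match of letters is a description and not a bound site.

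CD24 encodes a small surface glycoprotein found on many epithelial and carcinoma cells. It had 6523 and 6709 counts in WT 1 and WT 2, and 835 and 3472 in clones 4 and 5, or 155, 161, 23.2 and 83.5 CPM. Both clones lay below the WT pair (158 ± 4.76 CPM, SD, n = 2), clone 4 farther than clone 5. In bulk RNA, fewer cells with the transcript and less of it per cell cannot be told apart. The log2 of clone 4 over WT was -2.77 (SE 0.11, adjusted p = 1.2e-09 by edgeR), a level 6.82-fold lower, and that of clone 5 was -0.92 (SE 0.099, adjusted p = 8.88e-05 by edgeR), a level 1.89-fold lower. Clone 4 lay below clone 5 by a log2 of -1.85 (SE 0.12, adjusted p = 1.17e-07 by edgeR). The call in clone 5 was lost with no filter on low counts (adjusted p = 0.073), while the other calls held at each setting that gave a test. CD24 has no entry in the GENCODE annotation lifted to hg19, and near-identical pseudogenes of CD24 exist, so which locus its counts came from was not tested.

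F11R encodes JAM-A, an immunoglobulin-family protein of tight junctions, and lies at chr1:160965001-160991133 on the minus strand of hg19. It had 2508 and 2558 counts in WT, with 3905 and 3314 in clones 4 and 5, or 59.5, 61.5, 108 and 79.7 CPM. Both clones lay above the WT pair (60.5 ± 1.46 CPM, SD, n = 2). The log2 of clone 4 over WT was 0.84 (SE 0.098, adjusted p = 6.14e-05 by edgeR). That of clone 5 was 0.40 (SE 0.10, adjusted p = 0.0428 by edgeR). This call was lost under 6 of 10 alternatives, leaving out clone 4 among them. The alternatives without a WT library gave no test, and of the others only RLE scaling and halved counts kept the call. Adjusted p ran from 0.0221 to 0.263 where a test could be run. Between the clones the log2 of clone 4 over clone 5 was 0.44 (SE 0.12, adjusted p = 0.0206 by edgeR), lost with no filter (0.107) and with DESeq2 (0.0546). F11R shares 1853 exon bases with a read-through gene on its strand that is not among the symbols of the table.

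TJP1 encodes ZO-1, a scaffold under tight junctions, at chr15:29991571-30261118 on the minus strand of hg19. It had 363 and 365 CPM in WT 1 and WT 2, and 408 and 363 in clones 4 and 5. Only clone 4 lay outside the narrow WT range by more than 1 CPM, and its log2 over WT of 0.16 did not pass the test (SE 0.079, adjusted p = 0.225 by edgeR). The ratio of F11R to TJP1 per kb was 0.366 and 0.377 in WT, with 0.594 and 0.490 in clones 4 and 5.

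CDH1 encodes E-cadherin, the adherens junction cadherin of epithelia, at chr16:68771195-68869440 on the plus strand of hg19. It had 690 and 764 counts in WT 1 and WT 2, and 404 and 658 in clones 4 and 5, or 16.4, 18.4, 11.2 and 15.8 CPM. Clone 4 was the lowest library, and clone 5 lay just under WT 1. Clone 4 over WT gave a log2 of -0.63 (SE 0.17, adjusted p = 0.029 by edgeR). This call was lost with upper quartile scaling (0.0575), no filter (0.136), DESeq2 (0.158) and a filter over 3 groups chosen after seeing the data (0.0507). In clone 5 the log2 was -0.13 (SE 0.17, adjusted p = 0.763), and the difference between the clones, -0.50 (SE 0.20), did not pass (adjusted p = 0.117). CDH1 was not alone on its chromosome in clone 4. Of the 99 tested genes within 5 Mb to each side, 91 had a negative log2 in clone 4, 40 were called lower, and their median was -0.38, with -0.44 over the 577 other genes tested on chromosome 16. In clone 5 the same neighbours had a median of 0.17. Of these neighbours 19 had a lower log2 than CDH1 in clone 4. The part that the lower level of this chromosome has in the value of CDH1 was not tested.

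EPCAM encodes a surface adhesion molecule used to mark epithelial cells and lies at chr2:47572297-47614740 on hg19. It was nearly absent from the libraries, with 4, 6, 6 and 0 counts in WT 1, WT 2, clone 4 and clone 5. In clone 5 a count of 0 allows up to 0.0721 CPM, the level of 3 counts, a limit that covers counting error only. If each fragment was counted as 2, 3 fragments are 6 counts, or 0.144 CPM, which is the level of WT 2. The 4 values could not be told apart at this depth, and EPCAM fell under the filter and was not tested.

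CDH2 encodes N-cadherin, the cadherin of mesenchymal and neural cells, at chr18:25512843-25757910 on the minus strand of hg19. It had 5918 and 5990 counts in WT, with 2242 and 5300 in clones 4 and 5, or 140, 144, 62.2 and 127 CPM. Clone 4 stood well below the other libraries. Against WT, clone 4 had a log2 of -1.19 (SE 0.10, adjusted p = 2.43e-06 by edgeR), a level 2.29-fold lower, and clone 4 lay below clone 5 by a log2 of -1.04 (SE 0.11, adjusted p = 2.33e-05). In clone 5 against WT the log2 was -0.16 (SE 0.095, adjusted p = 0.468). Unlike CDH1, CDH2 lay below every one of the 26 tested genes within 5 Mb in clone 4, whose median was 0.11. The mRNAs of E-cadherin and N-cadherin were both lower in clone 4, although the call of CDH1 was lost under the settings given above. The fall was larger for N-cadherin mRNA, although that difference between the cadherins was not tested.

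**Figure D3:**
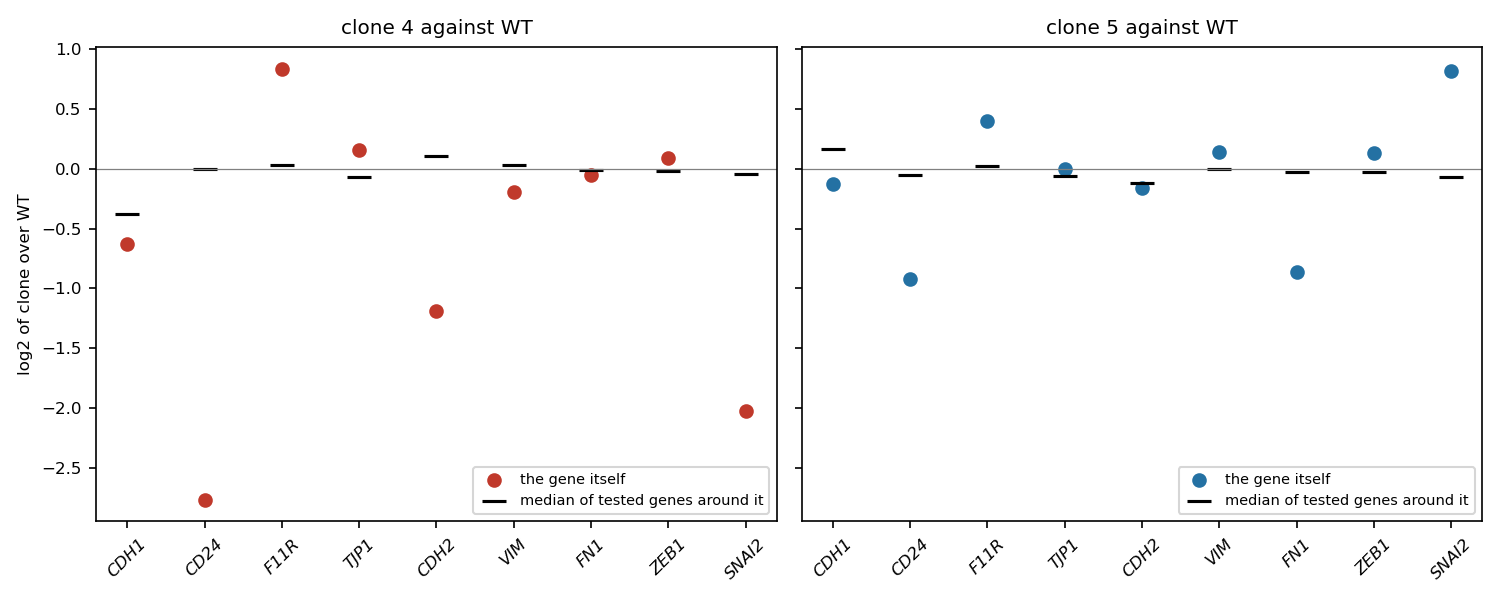
The log2 of clone over WT (y axis) of each tested gene (point) beside the median of the tested genes around it (line), within 5 Mb to each side or, for CD24, the 20 nearest to each side, in clone 4 and clone 5. In clone 4 the median of the neighbours is -0.38 for CDH1 and between -0.069 and 0.11 for the other 8 genes.

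VIM encodes vimentin, the intermediate filament of mesenchymal cells, at chr10:17270240-17279592 on the plus strand of hg19, where an antisense gene, VIM-AS1, shares 656 exon bases with it. It had 813 and 830 CPM in WT, with 718 and 909 in clones 4 and 5. Clone 4 lay below the WT pair and clone 5 above it. Neither passed against WT (log2 -0.19, SE 0.069, adjusted p = 0.0907 in clone 4, and 0.14, SE 0.068, adjusted p = 0.323 in clone 5, by edgeR), while the clones differed by -0.34 (SE 0.079, adjusted p = 0.0102 by edgeR), a call lost with no filter (0.0706). FN1 encodes fibronectin, an extracellular matrix glycoprotein, at chr2:216225163-216300796 on hg19. It had 7.92 and 9.86 CPM in WT, with 8.60 and 4.91 in clones 4 and 5, so only clone 5 lay outside the WT range. Its log2 in clone 5 was -0.86 (SE 0.23, adjusted p = 0.0561 by edgeR), which passed only with halved counts (0.0329). The log2 in clone 4 was -0.048 (SE 0.22, adjusted p = 0.928).

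ZEB1 and SNAI2 encode transcriptional repressors of E-cadherin, and SNAI2 is also called SLUG. ZEB1, at chr10:31607424-31818742 on the plus strand of hg19, had 119 and 115 CPM in WT, with 125 and 128 in clones 4 and 5. The log2 over WT was 0.094 in clone 4 and 0.13 in clone 5, each with an SE of 0.094, and neither passed (adjusted p = 0.605 and 0.574 by edgeR). SNAI2, at chr8:49830157-49834299 on the minus strand of hg19, was rare, with 66 and 30 counts in WT 1 and WT 2, and 10 and 84 in clones 4 and 5. The WT libraries of SNAI2 differed by a log2 of 1.12, the widest gap of the 10 genes. Clone 4 and clone 5 lay on opposite sides of the WT pair, with log2 over WT of -2.03 (SE 0.70, adjusted p = 0.0812) and 0.82 (SE 0.52, adjusted p = 0.5). Clone 4 lay below clone 5 by -2.85 (SE 0.74, adjusted p = 0.0196 by edgeR), a call lost with upper quartile scaling (0.0572), no filter (0.148) and DESeq2 (0.116).

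Between the clones, 5 of the 9 genes tested were called, where 13.1% of all genes tested were called. CD24, CDH2, VIM and SNAI2 were lower and F11R was higher in clone 4 than in clone 5. In NOCT-KO against WT, with the clones in 1 group, 0 of the 9 genes passed edgeR's test, as did 0% of all genes. CD24 had a log2 of NOCT-KO over WT of -1.57 (SE 0.56) and F11R of 0.64 (SE 0.16), each with an adjusted p of 0.971, and these were the 2 with an unadjusted p below 0.05, beside 553 of all genes. DESeq2 called 38 of all genes and limma-voom 0. Without clone 5, 4 of the 9 were called (CD24, CDH2 and CDH1 lower, F11R higher), and without clone 4, 1 was (CD24 lower).

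The genes whose levels over the 4 libraries lay nearest to those of each gene that differed between the clones were sought among 10049 genes of at least 5 CPM on average, by the Euclidean distance of centred log2 CPM with 0.5 added. For CD24 they were MITF (distance 0.34), SLC2A12 (0.38) and PXDNL (0.44). MITF, a basic helix-loop-helix transcription factor, had 16.7 and 16.1 CPM in WT, with 2.55 and 7.31 in clones 4 and 5. For F11R they were CCDC113 (0.094), PLK2 (0.099) and TFPI2 (0.10), for CDH2 ELOVL2 (0.081), KLF12 (0.11) and ADD2 (0.11), for VIM ZFP37 (0.015), DDX10 (0.018) and ATXN1L (0.02), and for SNAI2 BCL2A1 (0.28), SNX29 (0.45) and TANK (0.48). With 4 libraries these are descriptions.

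Another 100 genes of junctions and of the epithelial and mesenchymal states were listed, of which 70 were tested. The lists were chosen with earlier results of these data known, so their shares called are not an independent measure. In clone 4, 11 were higher and 10 lower (30% called, against 11.4% of all genes tested), and in clone 5, 9 were higher and 10 lower (27.1%, against 3.51%). The 30 genes not tested included the epithelial regulators GRHL2, ESRP1 and OVOL1. With no filter on low counts these calls fell to 7 in clone 4 and 2 in clone 5. CEACAM6, PKP2, HMGA2 and SPINT2, described further on, also lost a call under other settings. The median log2 over all 70 was -0.072 in clone 4 and 0.034 in clone 5.

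**Figure D4:**
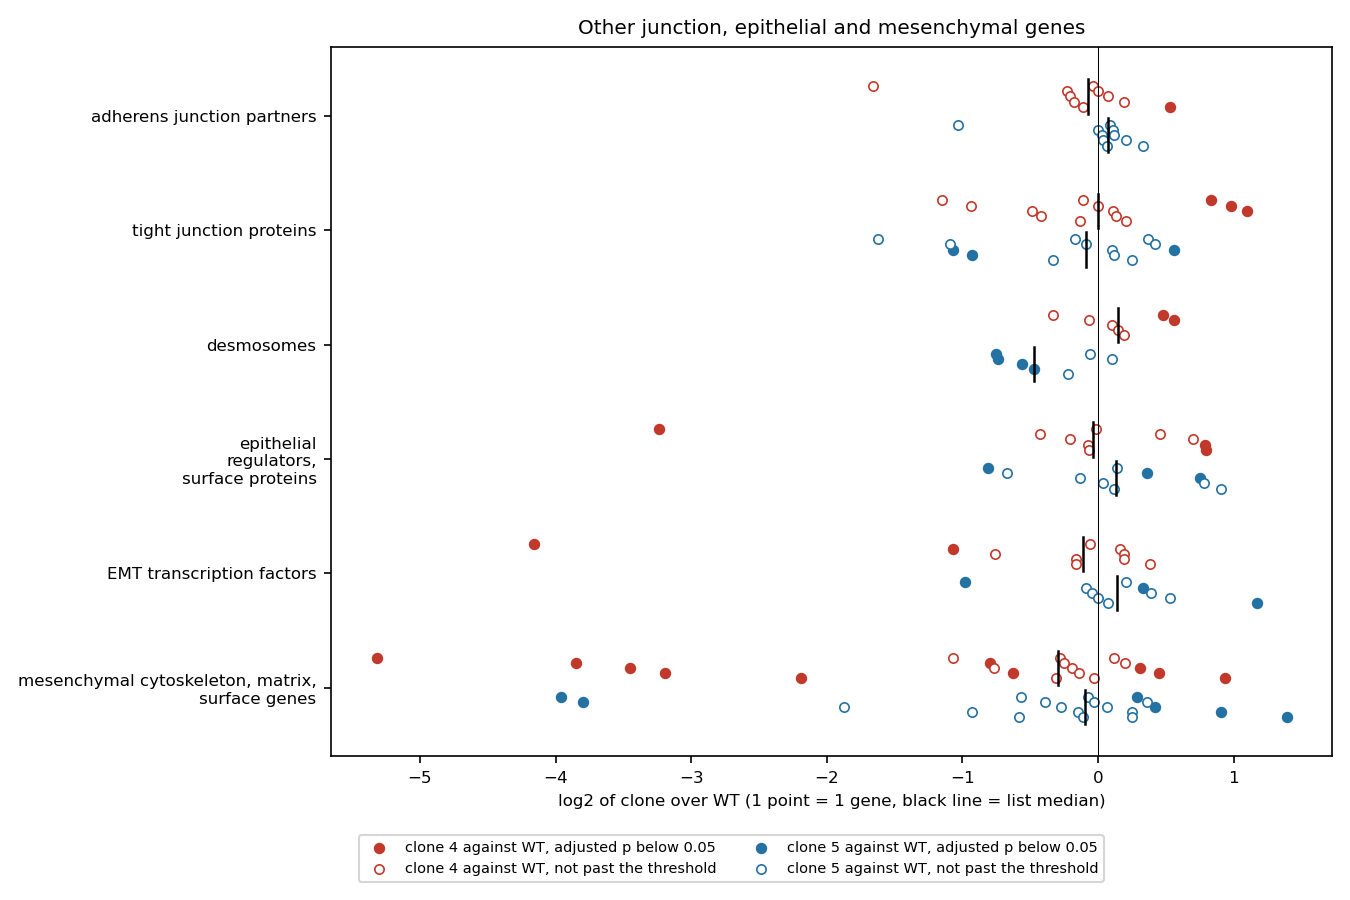
The log2 of clone over WT (x axis) of the 70 tested genes in 6 lists, 1 point for 1 gene, in clone 4 (red) and clone 5 (blue), filled where the adjusted p is below 0.05, with the median of each list as a black line. Desmosome genes have a median of 0.15 in clone 4 and -0.47 in clone 5.

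Several junction genes moved in opposite directions in the clones. Among 13 tight junction genes, 3 were higher in clone 4 and 0 lower, while 1 was higher and 2 lower in clone 5. That is 23.1% called in each clone, beside 11.4% of all genes tested in clone 4 and 3.51% in clone 5. The median log2 of the 13 genes was 0.0027 in clone 4 and -0.088 in clone 5, beside -0.011 and -0.0044 over all genes tested. CGN, which encodes the junction plaque protein cingulin, had 12.0 and 13.5 CPM in WT, with 27.4 and 6.06 in clones 4 and 5 (log2 over WT 1.10, SE 0.16, adjusted p = 0.000424, and -1.07, SE 0.18, adjusted p = 0.00425, by edgeR). CXADR, a receptor for coxsackievirus and adenovirus that sits at tight junctions, had 32.5 and 33.4 CPM in WT, with 65.1 and 17.3 in clones 4 and 5. Its log2 of clone 4 over clone 5 was 1.92 (SE 0.15, adjusted p = 7.16e-07 by edgeR). The claudin gene CLDN2 was higher in clone 4 (log2 0.83) and the claudin gene CLDN1 higher in clone 5 (log2 0.56). In the other clone, CLDN2 had a log2 of -0.33 and CLDN1 of 0.21, and neither passed.

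Of 7 desmosome genes, 2 were higher in clone 4 and 4 lower in clone 5, and 5 were higher in clone 4 than in clone 5. The shares called were 28.6%, 57.1% and 71.4%, beside 11.4%, 3.51% and 13.1% of all genes tested. DSP, the desmosomal linker desmoplakin, had 235 and 219 CPM in WT, with 317 and 154 in clones 4 and 5 (log2 over WT 0.48, SE 0.089, adjusted p = 0.00257, and -0.56, SE 0.093, adjusted p = 0.00348, by edgeR). The plakophilin gene PKP2 had log2 values of 0.56 and -0.75. DSC2, a desmosomal cadherin, and PERP, a desmosomal membrane protein, were lower in clone 5 only by the test against WT (log2 -0.74 and -0.47), and both lay higher in clone 4 than in clone 5 (adjusted p = 0.00202 and 0.0138 by edgeR). Of 10 adherens junction genes, 1 passed in clone 4 against WT and 0 in clone 5 against WT. That is 10% and 0%, beside 11.4% and 3.51% of all genes tested, with 20% beside 13.1% between the clones. The gene that passed in clone 4 was JUP, plakoglobin, which also sits in desmosomes (log2 0.53, SE 0.11, adjusted p = 0.00472 by edgeR). Between the clones 1 of these 10 was higher in clone 4, JUP (log2 0.50, SE 0.13, adjusted p = 0.0176), and 1 was lower, the nectin gene NECTIN3, listed as PVRL3 and named after its values were seen (log2 -0.53, SE 0.12, adjusted p = 0.00888). The keratins KRT8 and KRT18, used here as epithelial markers, stood at 808 and 934 CPM and at 845 and 910 CPM in WT, at 1357 and 1216 CPM in clone 4 and at 762 and 721 CPM in clone 5.

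Of 10 epithelial regulators and surface genes, 2 were higher and 1 lower in each clone. That is 30% called, beside 11.4% of all genes tested in clone 4 and 3.51% in clone 5. KLF5, a transcription factor of epithelial cells, had 35.8 and 36.1 CPM in WT, with 62.4 and 20.5 in clones 4 and 5, and both clones passed (log2 0.79, SE 0.12, adjusted p = 0.00041, and -0.81, SE 0.13, adjusted p = 0.00208, by edgeR). ELF3, an epithelial ETS factor, was higher in clone 4 (log2 0.80) and CEACAM6, a surface adhesion protein, was lower there, with 4 counts beside 32 and 58 in WT. KLF4 and SPINT2, a protease inhibitor, were higher in clone 5 (log2 0.75 and 0.36).

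Of 10 further transcription factors of the transition, 2 were lower in clone 4, and 2 were higher and 1 lower in clone 5. The shares called were 20% in clone 4 and 30% in clone 5, beside 11.4% and 3.51% of all genes tested. ZEB2, the paralogue of ZEB1, had 572 and 432 counts in WT, with 24 and 1122 in clones 4 and 5, or 13.6, 10.4, 0.666 and 27.0 CPM. Clone 4 lay far below and clone 5 above the WT pair (log2 -4.16, SE 0.30, adjusted p = 4.33e-07, and 1.17, SE 0.18, adjusted p = 0.00202, by edgeR). ZEB2 and ZEB1 had different calls, as ZEB1 passed in neither clone. SOX9 was lower in clone 4 (log2 -1.07), TCF4 lower in clone 5 (-0.98) and HMGA2, a chromatin protein, higher in clone 5 (0.33).

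Of 20 genes of the mesenchymal cytoskeleton, matrix and surface, 3 were higher and 7 lower in clone 4, with a median log2 of -0.30. In clone 5, 4 were higher and 2 lower, with a median of -0.095. The shares called were 50% in clone 4 and 30% in clone 5, beside 11.4% and 3.51% of all genes tested. The summed fibroblast markers given above were also lowest in clone 4, with COL3A1 at 187 and 206 CPM in WT and 26.7 CPM in clone 4, while DCN and THY1 were at 0 throughout. The marker PDGFRA, named after its values were seen, is also 1 of the 20 genes. It was among those lower in clone 4 (log2 -3.45, at 4 counts), while COL3A1 is not among the 20. The marker sum and the count of lower genes thus overlap, and how far they are linked was not tested. FSTL1, a secreted glycoprotein, had 386 and 368 counts in WT, with 8 and 24 in clones 4 and 5. Both clones lay far below WT (log2 -5.32, SE 0.40, adjusted p = 7.95e-07, and -3.96, SE 0.34, adjusted p = 7.89e-06, by edgeR). CDH11, a mesenchymal cadherin on chromosome 16 like CDH1, was lower in both clones as well (log2 -3.19 and -3.80), at 8 and 6 counts. NT5E, the surface nucleotidase CD73, had 58.3 and 66.3 CPM in WT, with 40.3 and 164 in clones 4 and 5 and was lower in clone 4 and higher in clone 5 (log2 -0.63 and 1.39). WNT5A, a secreted ligand, was lower in clone 4 (log2 -2.19) and TPM1, a tropomyosin, higher (0.45).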

How the data were processed

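The authors mapped poly-A reads of 4 A549 libraries to hg19. TopHat2 and HTSeq are named in the submitters' processing notes, with no version. Neither the annotation nor the strand setting was stated, and a gene may share reads with overlapping or antisense genes. The deposited values are raw counts per gene, not normalized. Of 23368 lines, 28 held a date in place of a symbol (0.274% of counts) and were left out. Totals ranged from 36873556 to 41963070, which limits precision for rare genes such as EPCAM.

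Genes were kept by edgeR's filterByExpr over the genotypes (minimum count 10, minimum total 15), scaled by TMM and tested with edgeR 4.0.16 (R 4.3.3) for quasi-likelihood F statistics, and p-values were adjusted by Benjamini-Hochberg over 13143 genes, with a threshold of 0.05. Each clone was compared with WT, and with the other clone, in a fit of 3 groups (1 residual degree of freedom, biological coefficient of variation 8.33%), and NOCT-KO with WT in a fit of 2 groups (2 residual degrees of freedom, 19.7%). The SE of a log2 was derived as its absolute value divided by the square root of the F statistic. The script was tested on simulated data. Alternatives were upper quartile and RLE scaling, no filter, halved counts, DESeq2 1.42.0, limma-voom (limma 3.58.1) and each library left out. Symbols were matched to GENCODE lifted to hg19 or to RefSeq: 19556 as given, 1900 through an older symbol and 1884 not at all.

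The members and lists were chosen with earlier results of these data known. Named were the 10 genes, NOCT, in each list up to 4 genes with the smallest p past the threshold per clone, and the 3 genes nearest in profile to each of the 10 that differed between the clones. A listed gene that this rule names is not reported here.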

Additional observations from a re-analysis of the deposited data

Results flagged for a closer look

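The following genes differed between the clones by the contrast within the edgeR fit, as log2 of clone 4 over clone 5. CD24 (-1.85), CDH2 (-1.04), VIM (-0.34) and SNAI2 (-2.85) were lower and F11R (0.44) higher in clone 4. Each clone is 1 library, so variation between cultures of a clone was not measured.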

How the results depend on the processing

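Over the alternatives, 298 of the values for the 10 genes kept their direction and, where a test was run, their call. Another 17 lost a call, 7 gained one and 11 changed sign. For the listed genes named, 439 values kept their direction and, where a test was run, their call. Another 39 lost a call, mostly with no filter, and 2 changed sign. No paired analysis was possible because no culture, batch or day is stated that links a WT library to a clone. For clone 4 against WT, where 4 of the genes, 21 listed genes and 1502 of all genes were called, no filter left 7 listed and 366 of all genes, and DESeq2 931 of all. For clone 5 against WT (2, 19 and 461), upper quartile scaling gave 1 of the genes and 217 of all, no filter 0, 2 and 29, DESeq2 1 and 283 of all, limma-voom 1 of the genes, a filter over 3 groups, chosen after seeing the data, 1 and 270 of all, and leaving out clone 4 gave 1. For clone 4 against clone 5 (5, 24 and 1723), no filter gave 2, 15 and 496, and DESeq2 3 and 1083 of all. For NOCT-KO against WT (0 called), DESeq2 gave 3 listed genes (CDH11 and FSTL1 among them) and 38 of all. With each library left out the ranges were 0 to 4 of the genes, 0 to 20 listed genes and 0 to 1184 of all, with 1, 17 and 363 without clone 4 and 4, 20 and 1184 without clone 5.

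Values that changed sign were near 0 or rare. TJP1 in clone 5 was 0.00088 with RLE scaling, 0.0012 with DESeq2 and -0.0059 to 0.0025 with a library left out. FN1 in clone 4 ran from -0.20 to 0.12 with a WT library left out, PERP in clone 4 from -0.14 to 0.0033 and JUP in clone 5 from -0.035 to 0.12. In NOCT-KO against WT, SNAI2 was -0.0058 with upper quartile scaling, -0.41 with limma-voom and -2.02 to 0.82 with a library left out, VIM ran from -0.19 to 0.15 and TJP1 from -0.00059 to 0.17. The cause of these changes was not tested. With a WT library left out of the clone comparisons no residual degree of freedom remained, so those are values with no test.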
